A study of Mus musculus with 4 samples.

Results

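Antibody genes were followed across 4 single-nucleus RNA libraries of mouse fat: Ighm, Ighd, Igha, Ighg1, Ighg2b, Ighg2c and Ighg3, which encode heavy-chain constant regions, Igkc, which encodes the kappa light-chain constant region, and Jchain, which encodes the joining chain. These 9 genes were taken by symbol from the 32285 features of the deposited matrices. The mice of all 4 libraries were fed a high-fat diet. They had surgery (bariatric, according to the series title) or a sham operation, and the fat was labelled brown (BAT) or beige (BeAT), which gives a BAT surgery, a BAT sham, a BeAT surgery and a BeAT sham library, 1 of each. Strain, age and the number of animals behind a library are not stated in the labels used here, and the labels name nuclear RNA while their protocol describes an enzyme-digested cell suspension.

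With 1 library per group there is no replicate and no test of surgery. Intervals are exact 95% intervals that cover counting error only, and a difference between libraries can be that of the animals, the dissection or the preparation, which cannot be told apart from surgery. A gene was called higher or lower where both sums held at least 50 unique molecular identifiers (UMIs, counted RNA molecules) together, the ratio of CPM (UMIs scaled to the total of the library or class) was at least 2-fold and its interval excluded 1. A sum of 0 was set to a floor of 3 UMIs.

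Each B cell makes 1 kind of heavy chain and 1 kind of light chain, kappa or lambda. Resting B cells splice IgM and IgD messages (Ighm and Ighd) from the same transcript, and class switching replaces them by IgG, IgA or IgE. Plasma cells secrete antibody and carry far more immunoglobulin RNA than B cells do, and the joining chain links IgM and IgA into polymers. Because the genes of this family resemble each other, the IgG subclasses are told apart by sequence.

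The 7 heavy-chain members lie on the minus strand of chromosome 12 of GRCm38 (mm10) between Igha, at chr12:113254830-113260236, and Ighm, at chr12:113418558-113422730. Igkc lies at chr6:70726435-70726966 on the plus strand, where the annotated gene Gm30211 overlaps it on the same strand, so that reads there cannot be given to one of them by strand. Jchain lies at chr5:88519809-88527891 on the minus strand. The hinge exon, the second exon of each IgG gene, is shown because it is where the subclasses differ in length and in the cysteines that join the heavy chains. The 4 hinge exons, read from GRCm38 on the coding strand with in-frame cysteine codons in capitals, are as follows.
Ighg1 (chr12:113329844-113329882): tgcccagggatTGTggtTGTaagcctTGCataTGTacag
Ighg2b (chr12:113307261-113307326): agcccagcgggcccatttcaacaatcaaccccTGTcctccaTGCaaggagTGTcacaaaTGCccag
Ighg2c (chr12:113288263-113288325): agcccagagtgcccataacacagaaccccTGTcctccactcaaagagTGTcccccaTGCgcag
Ighg3 (chr12:113360529-113360576): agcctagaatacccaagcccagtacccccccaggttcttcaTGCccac

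The exons have 39 bases and 4 cysteine codons in Ighg1, 66 bases and 4 in Ighg2b, 63 bases and 3 in Ighg2c, and 48 bases and 1 in Ighg3. Over whole annotated transcripts, 0.411% of the 50-base windows of Ighg1, 4.33% of those of Ighg2b, 6.01% of those of Ighg2c and 1.65% of those of Ighg3 also occur in another IgG gene. Most of each transcript is thus unique at that read length, and the pair with most in common is Ighg2b and Ighg2c, with 87.8% identity. UMIs were not divided by transcript length, so the shares below are compared between libraries or classes and not between genes.

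The labels were checked against markers. Ucp1, which encodes the heat-producing uncoupling protein of thermogenic fat cells, had 25 UMIs in the BAT surgery, 3 in the BAT sham, 1 in the BeAT surgery and 6 in the BeAT sham library, and in nuclei gated as adipocytes it had 0, 2, 0 and 6. The BAT and BeAT labels are therefore used only as names. The BAT surgery library held 9 clusters almost alone (at least 99% of their nuclei), with 6421 of its 9159 nuclei (70.1%). Genes known from the epididymis, such as Crisp4, Adam7, Ces5a and Wfdc8, were among the 10 leading genes of several of them, and 1 of the 9, with 785 nuclei, had Defb15, Spag11b and Gpx5 there. Gpx5, a secreted peroxidase of the epididymis, was found in 90.5% of nuclei gated as B cells there and in 0% of those in the BAT sham library. In the BeAT surgery library 37.9% of nuclei passed the B gate and 26.1% the T or NK gate, against 0.553% and 1.47% in the BeAT sham library. These features move with the surgery label, and their part in the results below was not tested. Pairs of libraries shared 36 to 73 barcodes, and the values of the settings compared in the closing section moved by less than their interval without those barcodes.

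Over whole libraries, most of the 9 genes were higher in each surgery library than in its sham library. Ighm had 8365 UMIs (160.4 CPM) in the BAT surgery and 2285 UMIs (52.1 CPM) in the BAT sham library, and 5061 UMIs (263.8 CPM) in the BeAT surgery and 1097 UMIs (33.3 CPM) in the BeAT sham library. Igkc had 8359 and 1374 UMIs in the BAT surgery and BAT sham libraries, and 1977 and 179 UMIs in the BeAT surgery and BeAT sham libraries. Both genes were higher under both labels: the ratio of surgery over sham was 3.08 (2.94 to 3.23) for Ighm and 5.12 (4.83 to 5.42) for Igkc under the BAT label, and 7.92 (7.42 to 8.46) and 19.0 (16.3 to 22.2) under the BeAT label. Jchain followed with 969 and 137 UMIs (ratio 5.95, 4.97 to 7.17) under the BAT label and 516 and 26 UMIs (ratio 34.1, 22.98 to 52.65) under the BeAT label.

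Scaling by median of ratios shifted all log2 ratios by -0.13 under the BAT label and -0.11 under the BeAT label and changed no call of the 9 genes. Under the BAT label 6 of the 9 genes were called higher, against 22.4% of all 18835 genes tested, and 2 were called lower, against 18.1%. Under the BeAT label all 9 were called higher, against 20.9% of 16336 genes tested, and 0 lower, against 22.1%. IgG genes other than Ighg2c had few or no UMIs in the sham libraries. Ighg1 had 275 UMIs in the BAT surgery and 0 in the BAT sham library (at least 77.1-fold higher, and at least 40.9-fold without the nucleus that held 129 of the 275), and 310 in the BeAT surgery and 0 in the BeAT sham library (at least 177.4-fold higher). Ighg2b had 1386 and 18 UMIs in the BAT surgery and BAT sham libraries, and 425 and 2 in the BeAT surgery and BeAT sham libraries, ratios of 64.7 (40.8 to 109.6) and 364.7 (100.4 to 3021.5). Ighg3 had 100 and 4 UMIs under the BAT label (ratio 21.02, and 42.0 without 1 BAT sham nucleus) and 149 and 0 under the BeAT label.

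Ighd and Ighg2c went opposite ways under the 2 labels. Ighd, the mark of unswitched resting B cells, had 63 UMIs in the BAT surgery and 229 in the BAT sham library (ratio 0.231, 0.172 to 0.307), and 3549 in the BeAT surgery and 106 in the BeAT sham library (ratio 57.5, 47.4 to 70.4). Ighg2c had 58 and 185 UMIs in the BAT surgery and BAT sham libraries (ratio 0.264, 0.193 to 0.356), and 156 and 4 in the BeAT surgery and BeAT sham libraries (ratio 66.9, 25.6 to 248.8). Of the 185 BAT sham UMIs, 22, 20 and 18 came from 3 nuclei of a cluster led by muscle genes. That cluster had 302 nuclei in the BAT sham and 0 in the BAT surgery library. Without the BAT sham nucleus with most Ighg2c UMIs (24) the ratio was 0.303 (0.220 to 0.411). Igha had 398 and 191 UMIs under the BAT label, a ratio of 1.75 (1.47 to 2.09) that was not called, and 616 and 9 UMIs under the BeAT label, a ratio of 117.5 (61.5 to 258.1). A single nucleus held 157 of the 191 Igha UMIs of the BAT sham library, and without it the ratio was 9.84 (6.93 to 14.4) and Igha was called higher. Ighe, the remaining heavy-chain constant gene, had 1, 0, 2 and 0 UMIs in the 4 libraries.

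**Figure D1:**
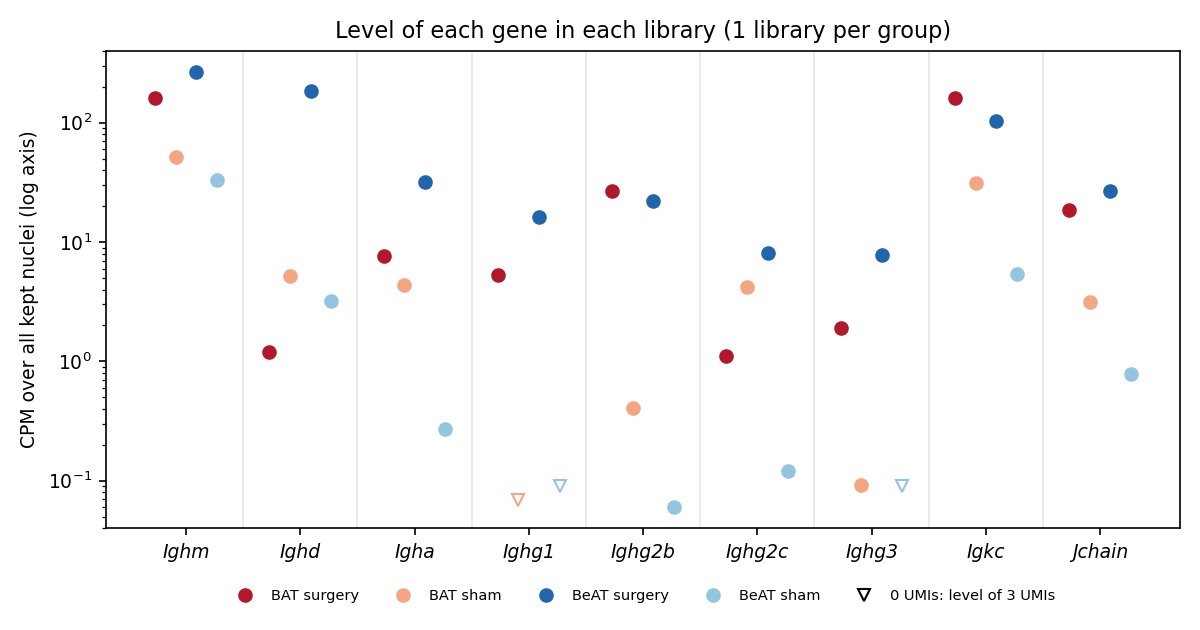
Level of each of the 9 genes over all kept nuclei of a library, in CPM on a log axis, with 1 point per library and open triangles at the level of 3 UMIs where a library had 0. The surgery points lie above the sham point of the same label for every gene except Ighd and Ighg2c under the BAT label, where Ighd had 63 UMIs in the surgery and 229 in the sham library.

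In sums over a library, more cells of a type and more RNA per cell cannot be told apart, so the genes were next counted per class of nuclei. B nuclei were set without any antibody gene, by at least 2 of Bank1, Pax5, Cd79b and Ms4a1, and plasma-gated nuclei by at least 2 of Mzb1, Tnfrsf17 and Derl3. The B gate held 42 nuclei in the BAT surgery, 79 in the BAT sham, 2021 in the BeAT surgery and 54 in the BeAT sham library. The plasma gate held 34, 1, 7 and 0 nuclei, and the markers went against the gate's name for most of the 34 in the BAT surgery library. Of those, 25 lay in the 9 clusters named above and 8 in the Irf4 Prdm1 cluster described below, 11 also passed the epithelial gate and Epcam was found in 44.1%, and the gate marker Derl3 was found in 26.7% of epithelial nuclei of that library. These nuclei are therefore called plasma-gated and not plasma cells. Under the BeAT label the B gate was thus larger in the surgery library, while the adipocyte gate was smaller there (9.50% against 58.1% of nuclei). Under the BAT label the B gate was a smaller share of all nuclei in the surgery library, with 0.459% (0.331 to 0.619) against 0.807% (0.639 to 1.01). The surgery share counts all 9159 nuclei, of which 6421 lay in the 9 clusters held almost alone by that library. A share of the remaining nuclei was not computed, so these percentages do not show fewer B nuclei among comparable cells.

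The share of antibody RNA that lay in few antibody-rich nuclei differed between libraries. In the BAT surgery library 299 of 9159 nuclei held at least 10 heavy-chain constant and Igkc UMIs, and together they held 60.9% of all such UMIs. There were 41 such nuclei in the BAT sham (39.9% of UMIs), 226 in the BeAT surgery (34.8%) and 7 in the BeAT sham library (7.37%). Their kind differed: in the BeAT surgery library 205 of the 226 passed the B gate, whereas in the BAT surgery library 11 passed the B gate, 17 the plasma gate, 76 lay in a cluster led by Pou2af1, Irf4 and Prdm1 and 149 lay in the cluster with Defb15 and Gpx5. The last group had 2287 Ighm and 2526 Igkc UMIs in 785 nuclei.

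**Figure D2:**
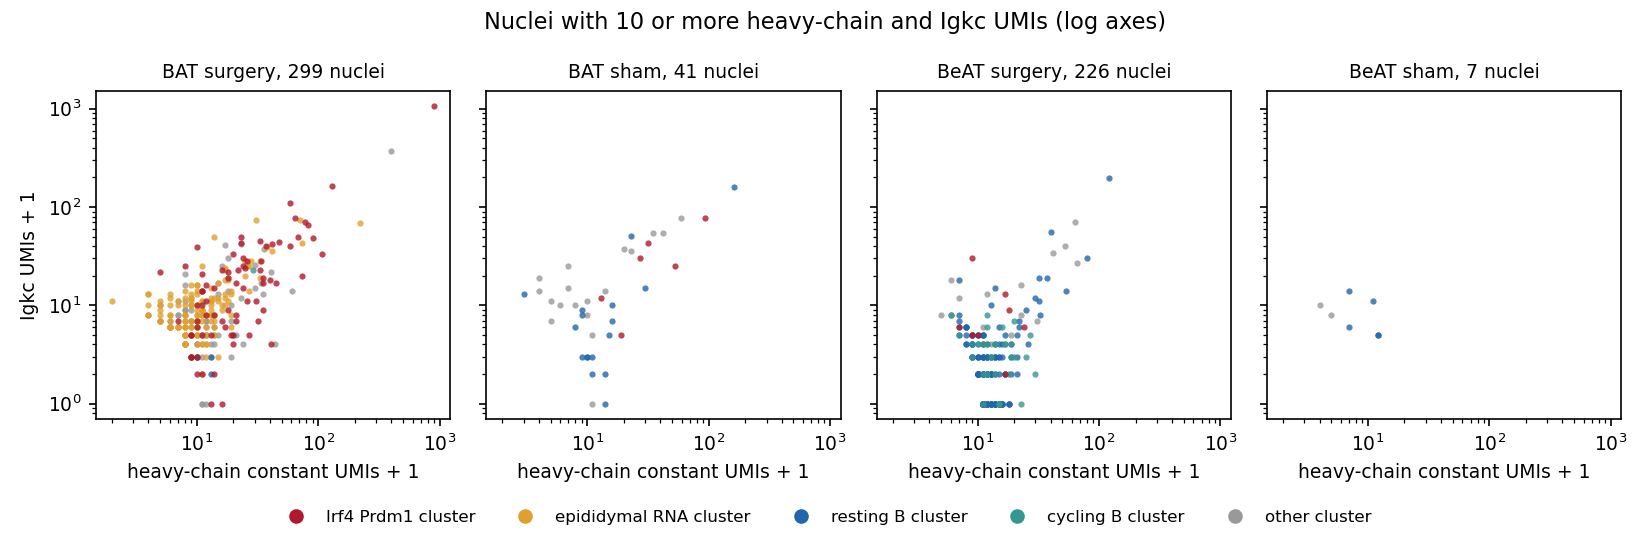
Heavy-chain constant UMIs against Igkc UMIs, both plus 1 on log axes, in each nucleus with at least 10 of them, coloured by cluster, for the 299, 41, 226 and 7 such nuclei of the BAT surgery, BAT sham, BeAT surgery and BeAT sham libraries. The nucleus with most UMIs of both, 901 Ighm and 1067 Igkc, is in the BAT surgery library and in the Irf4 Prdm1 cluster, and most points of the BeAT surgery library are of the resting B cluster with few Igkc UMIs.

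Antibody UMIs were also found outside the B gate, and their source was not tested. After each nucleus was thinned to 1000 UMIs, Ighm was found in 46.8% of B nuclei of the BeAT surgery library (68.6% before thinning), against 7.86% of its T or NK nuclei (18.6% before). Ighd was found in 44.2% of those B nuclei and in 1.76% of those T or NK nuclei, and Igkc in 14.8% and 3.21%. In the BAT surgery library the thinned Ighm share was 56.8% in B nuclei, 7.07% in T or NK nuclei and 14.8% in adipocyte nuclei (73.8%, 18.0% and 39.8% before thinning). In each of the 4 libraries the thinned Ighm share of B nuclei was above that of T or NK nuclei, with 62.5% and 2.11% in the BAT sham and 62.8% and 5.0% in the BeAT sham library (73.4% and 6.04%, and 72.2% and 7.69%, before thinning). Of the B nuclei 37 of 42, 72 of 79, 1786 of 2021 and 43 of 54 had enough UMIs to be thinned.

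B nuclei of the 4 libraries differed in the mix of heavy-chain genes. Ighm made up 90.7% (87.7 to 93.1) of the 492 heavy-chain UMIs in B nuclei of the BAT surgery library and 57.3% (52.5 to 62.0) of 431 in the BAT sham library. It made up 46.6% (45.6 to 47.7) of 8387 in the BeAT surgery and 56.4% (48.8 to 63.7) of 181 in the BeAT sham library. The interval of the BAT surgery share lay above those of the other 3 libraries, but for the BAT sham and BeAT sham libraries this did not hold in all settings. With a stricter B gate the share was 71.1% (61.05 to 79.89) in the BAT surgery and 60.2% (50.75 to 69.07) in the BeAT sham library, which overlap. One nucleus in the epididymal cluster held 216 of the 446 Ighm UMIs of the BAT surgery B nuclei, and their share was 83.9% without it. It was 69.2% (58.7 to 78.5) in the 24 B nuclei that lay in the cluster of resting B nuclei, against 57.0% (51.4 to 62.4) in the 52 of the BAT sham library, which overlaps.

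Ighd, co-spliced with Ighm in resting cells, went the other way. It made up 3.66% (2.18 to 5.72) of heavy-chain UMIs in B nuclei of the BAT surgery library, against 33.4% (29.0 to 38.1) in the BAT sham library, and 39.9% (38.8 to 40.9) in the BeAT surgery library, against 43.7% (36.3 to 51.2) in the BeAT sham library. Both genes had a UMI in 8 of 42 B nuclei of the BAT surgery library, 38 of 79 of the BAT sham, 1019 of 2021 of the BeAT surgery and 29 of 54 of the BeAT sham library. Low Ighd thus set the BAT surgery B nuclei apart from those of the other 3 libraries, also within the resting cluster, where the Ighd share was 15.4% (8.67 to 24.5) in the BAT surgery and 41.2% (35.8 to 46.8) in the BAT sham library.

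Switched genes (Igha and the 4 IgG genes) made up 5.69% (3.82 to 8.12) of heavy-chain UMIs in B nuclei of the BAT surgery library, against 9.28% (6.71 to 12.4) in the BAT sham library. They made up 13.5% (12.8 to 14.3) in the BeAT surgery library and 0 of 181 UMIs in the BeAT sham library, which allows up to 2.02% by the exact interval. Under the BeAT label the intervals did not overlap, and under the BAT label they did. In the BAT sham library 22 of the 30 Ighg2c UMIs of B nuclei came from 1 nucleus, and the switched share was 4.29% without the nucleus with most antibody UMIs.

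Counted by the gene with most UMIs in each nucleus that had at least 3 heavy-chain UMIs and no tie, Ighm led 26 of 28 B nuclei in the BAT surgery library and 24 of 42 in the BAT sham library. Ighd led 1 and 17 of those. In the BeAT surgery library Ighm led 485, Ighd 437, an IgG gene 83 and Igha 14 of 1019 nuclei, and in the BeAT sham library Ighm led 14 and Ighd 13 of 27. An IgG gene led no B nucleus of the BAT surgery, BAT sham or BeAT sham libraries.

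In levels, B nuclei of the BAT surgery library had 2743.2 CPM of Ighm, against 1024.8 CPM in the BAT sham library (ratio 2.68, 2.29 to 3.14), a call that ended without 1 BAT surgery nucleus (1.43, 1.19 to 1.72). Ighd had 110.7 and 597.4 CPM (ratio 0.185, 0.107 to 0.303), Jchain 313.7 and 20.7 CPM (ratio 15.1, 6.07 to 48.6, and 9.53 from under 50 UMIs without 1 BAT surgery nucleus), and Igkc 1328.5 and 1136.8 CPM (ratio 1.17, 0.973 to 1.40). Of the 9 genes 2 were called higher, against 6.52% of 1872 genes tested, and 1 lower, against 11.3%, while 5 had under 50 UMIs. Within the resting cluster the Ighm and Jchain calls ended: Ighm had 1350.3 CPM in the BAT surgery and 1579.8 CPM in the BAT sham nuclei (ratio 0.855, 0.632 to 1.14), and Jchain had 0 UMIs in both. There Ighd (ratio 0.263, 0.140 to 0.457) and Igkc (ratio 0.193, 0.0977 to 0.347) were called lower, against 11.3% of 612 genes tested, and 0 of the 9 were called higher, against 8.99%. By median-of-ratios scaling, which shifted log2 ratios by -0.32 there, 23 of those 612 genes were higher and 95 lower, against 55 and 69 by totals.

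B nuclei of the BeAT surgery library had 635.6 CPM of Ighm and 543.1 CPM of Ighd, against 731.8 and 566.8 CPM in the BeAT sham library. Neither was called, with ratios of 0.869 (0.714 to 1.07) and 0.958 (0.767 to 1.21) that turned to 1.04 and 1.14 by median-of-ratios scaling, which raised all ratios of this comparison by 0.25 on the log2 scale. Both genes were thus higher over the whole BeAT surgery library without being called higher in its B nuclei. Igkc had 230.0 CPM in the BeAT surgery and 509.4 CPM in the BeAT sham nuclei (ratio 0.452, 0.356 to 0.581) and was called lower, a call that ended by median-of-ratios scaling (0.539) and without 1 BeAT sham nucleus (0.545).

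Igha had 353 UMIs in B nuclei of the BeAT surgery library and 0 in those of the BeAT sham library (at least 2.67-fold higher), but 1 nucleus held 118 of them, and without it the bound was at least 1.78-fold and the call ended. Ighg1 had 279 and 0 (at least 2.11-fold, and at least 1.97-fold without 1 nucleus, which ends that call too), Ighg2b 299 and 0 (at least 2.26-fold), and Jchain 378 and 0 UMIs (at least 2.85-fold). These 4 of 9 genes were called higher, against 8.72% of 9804 genes tested, and 1 lower, against 12.7%. By median-of-ratios scaling 1486 of all genes were higher and 1030 lower, against 855 and 1241 by totals. Within the resting cluster none of the 4 was called higher, since with 45 BeAT sham nuclei the floor allowed only at least 1.59-fold for Igha and at least 1.35-fold for Jchain, and there 4.04% of 7900 genes were called higher and 7.09% lower. Median-of-ratios scaling gave 663 higher and 427 lower there, against 319 and 560 by totals.

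Between the labels, B nuclei of the BeAT surgery library set over those of the BAT surgery library were higher in Ighd (ratio 4.91, 3.10 to 8.29) and Ighg1 (7.37, 1.31 to 292.2, with 1 UMI in the BAT surgery nuclei). They were lower in Ighm (0.232, 0.210 to 0.256), Igkc (0.173, 0.150 to 0.201) and Jchain (0.196, 0.146 to 0.268). Within the resting cluster the BeAT surgery and BAT surgery B nuclei had 254.1 and 257.2 CPM of Igkc, 791.6 and 1350.3 CPM of Ighm, and 50.7 and 0 CPM of Jchain, so none of the 3 was there 2-fold lower. The 2 higher and 3 lower genes stand beside 6.69% and 11.9% of 9853 genes tested. Between the sham libraries, BAT sham over BeAT sham, Igkc was called higher (2.23, 1.71 to 2.94), a call that ended without 1 BAT sham nucleus (1.67), while Ighm (1.40, 1.11 to 1.78) and Ighd (1.05, 0.796 to 1.41) were not called and the other 6 had under 50 UMIs. There 7.77% of 1712 genes were higher and 4.15% lower. Each library enters both a surgery comparison and one between labels, so these comparisons share libraries.

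**Figure D3:**
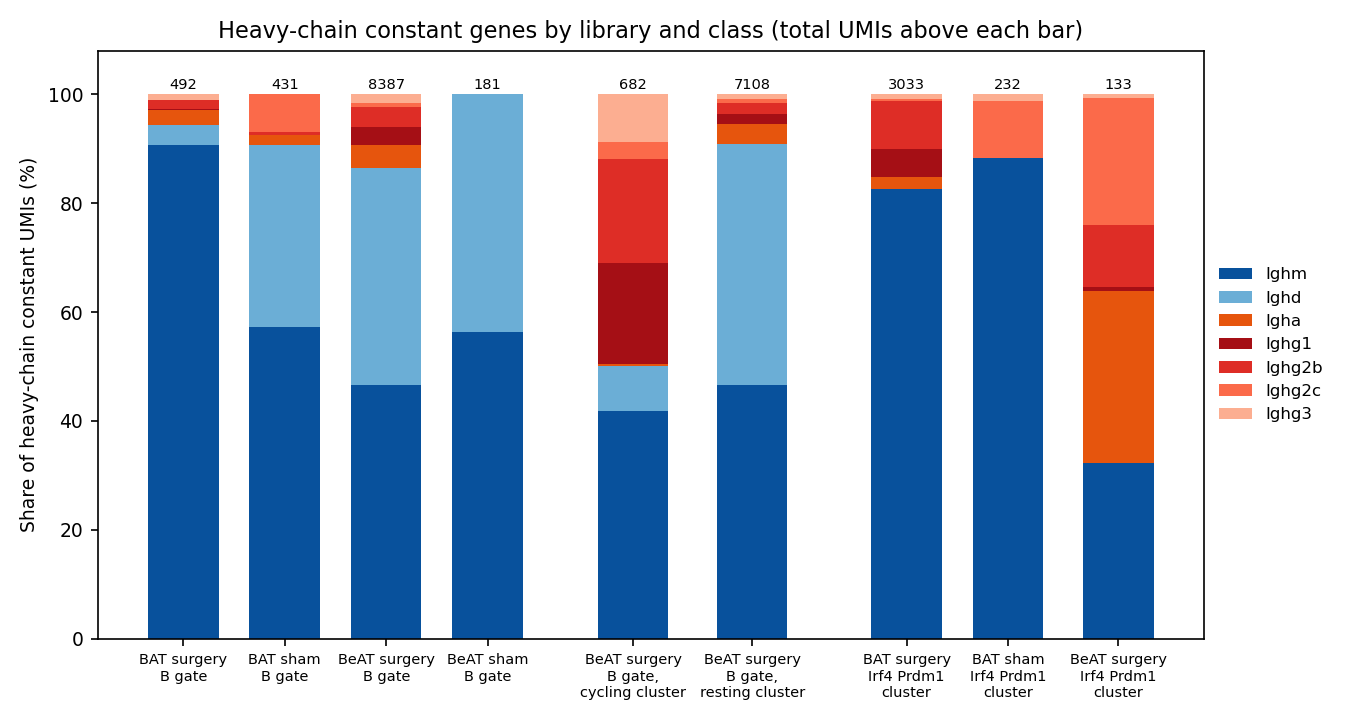
Share of heavy-chain constant UMIs from each of the 7 heavy-chain genes, in percent, with the total UMIs above each bar, for B nuclei of the 4 libraries, for B nuclei of the cycling and resting clusters of the BeAT surgery library, and for the Irf4 Prdm1 cluster in the 3 libraries that hold it. Switched genes fill 49.9% of the cycling bar and 9.06% of the resting bar, and the BeAT sham bar holds Ighm and Ighd only.

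Within the BeAT surgery library, IgG use was higher in cycling B nuclei. A cluster led by Pax5, Mybl1, Mki67 and Top2a (the last 2 mark dividing cells) held 96 B nuclei with a median of 6606 UMIs, and the cluster of resting B nuclei, led by Bank1, Pax5 and Ikzf3, held 1723 with a median of 2146. Antibody genes took no part in the clustering, but the other genes of these nuclei did. Switched genes made up 49.9% (46.0 to 53.7) of 682 heavy-chain UMIs in the cycling nuclei and 9.06% (8.40 to 9.75) of 7108 in the resting ones. A switched gene led 37 of 67 cycling nuclei and 52 of 897 resting nuclei, so the counts per nucleus and the UMI shares, which do not depend on the scaling, went the same way.

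All 4 IgG genes were called higher in the cycling nuclei. Ighg1 had 188.0 CPM in cycling and 33.0 CPM in resting nuclei (ratio 5.70, 4.44 to 7.31), Ighg2b 192.4 and 33.9 CPM (5.67, 4.43 to 7.24), Ighg3 88.8 and 16.0 CPM (5.55, 3.85 to 7.98), and Ighg2c 31.1 and 11.2 CPM (2.77, 1.57 to 4.72), the last not called without 1 cycling nucleus (1.88, 0.953 to 3.46). Jchain had 170.2 and 50.7 CPM (3.36, 2.65 to 4.24, and 5.23 without 1 resting nucleus). In UMI sums Igha went the opposite way to IgG, with 2 UMIs in cycling and 250 in resting nuclei (ratio 0.0495, 0.00597 to 0.181), of which 118 came from 1 resting nucleus (0.0937 without it) and 33 from another. Igha led 8 of the 1723 resting and 0 of the 96 cycling B nuclei. With so few Igha nuclei, the count per nucleus cannot show a difference between the clusters. Ighd was lower too, with 84.4 and 753.3 CPM (0.112, 0.0846 to 0.146), while Ighm (0.533, 0.471 to 0.602) and Igkc (0.833, 0.695 to 0.993) were not called. In all 5 of 9 genes were higher, against 10.5% of 8337 genes tested, and 2 lower, against 12.8%.

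The switching genes of these nuclei were used in the clustering, and their values are given as a description. Among genes that act in class switching, the exonuclease gene Exo1 (77.0 and 5.26 CPM in cycling and resting nuclei) and the end-protection gene Rif1 (484.0 and 193.6 CPM) were higher. Of the 12 genes of the B cell receptor complex 2 were lower, the IgM receptor gene Fcmr (54.8 and 158.0 CPM) and Fcer2a (50.3 and 271.3 CPM), which encodes the low-affinity IgE receptor CD23. Of 8 receptors for switch signals Tgfbr1 was higher and Cd40, Tgfbr2 and Il4ra were lower. Of the 14 plasma cell genes 10 were tested. Slamf7 was higher, and Irf4 (20.7 and 77.4 CPM) and Cd38 (44.4 and 417.1 CPM) were lower. These list counts stand beside 10.5% of all 8337 genes tested that were higher and 12.8% that were lower, and nothing is read from them.

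Plasma-gated nuclei were led by different genes in different libraries. In the BAT surgery library Ighm made up 81.6% (79.7 to 83.5) of the 1618 heavy-chain UMIs of the 34 plasma-gated nuclei, 25 of which lay in the 9 clusters held almost alone by that library, and 58.6% without the nucleus with most antibody UMIs. Ighm led 13 of 21 nuclei with a leading gene, Ighg2b 5, and Igha, Ighg1 and Ighg3 1 each. In the BeAT surgery library 7 plasma-gated nuclei had 261 heavy-chain UMIs, of which Igha made up 40.6% (34.6 to 46.8), Ighg2b 24.9% (19.8 to 30.6) and Ighm 16.9% (12.5 to 21.96), and Igha led 4 of the 7. Of these 7 nuclei 3 also passed the T or NK gate and 2 lay in the Irf4 Prdm1 cluster. Another of the 7, with 26192 UMIs, had all 4 B markers and UMIs of all 7 heavy-chain genes. The 1 plasma-gated nucleus of the BAT sham library had 157 Igha UMIs among 160. These counts of nuclei are small, and the intervals take every UMI as independent, although many UMIs come from 1 nucleus.

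The plasma markers were sparse in nuclear RNA. A cluster led by Pou2af1, Cacna1e, Irf4 and Inpp4b had Prdm1 and the cycling gene Mki67 among its 10 leading genes. In the BAT surgery library the cluster held 2503 Ighm and 2722 Igkc UMIs, against 1321 and 1702 in plasma-gated nuclei. In the BeAT surgery library it held fewer Igkc UMIs than the gate (83 against 165). Antibody genes took 0.533% of UMIs in the cluster there and 1.02% in the gate. The cluster was examined after the data were seen, and it is called here by its genes. It had 99 nuclei in the BAT surgery, 6 in the BAT sham, 19 in the BeAT surgery and 0 in the BeAT sham library. In the BAT surgery library Prdm1, the repressor that drives plasma cell fate, was found in 48.5% of its nuclei, Irf4 in 51.5% and Xbp1, the secretory pathway regulator, in 55.6%. Of the 3 plasma gate markers Mzb1 was found in 21.2%, Derl3 in 26.3% and Tnfrsf17 in 2.02%, while the B identity gene Pax5 was found in 1.01%. Gpx5 was found in 93.9% and Epcam in 13.1% of these nuclei.

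Antibody genes took 3.15% of all UMIs in those 99 nuclei, although the clustering had used none of them. Ighm had 2503 UMIs there (12508.4 CPM), against 112.8 CPM in all other nuclei of the library, and Igkc had 2722 UMIs (13602.8 CPM), against 108.5 CPM. Jchain had 332 UMIs (1659.1 CPM), against 12.3 CPM. All 9 genes were higher there, from a ratio of 8.51 (1.01 to 32.1) for Ighd, which had 2 UMIs, to 335.4 (262.6 to 429.3) for Ighg1, against 8.45% of 17166 genes higher and 12.2% lower. However, 1 nucleus held 129 of the 155 Ighg1 UMIs of the cluster, so the Ighg1 ratio rests largely on it. Another nucleus held 901 of the Ighm and 1067 of the Igkc UMIs. Ratios of the cluster without these nuclei were not computed. Of the 14 plasma cell genes 12 were higher, with a list median of 3.75 on the log2 scale beside 0.42 over all genes, but these genes helped to make the cluster and nothing is read from that count.

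The heavy-chain mix of that cluster differed between the libraries labelled as surgery. In the BAT surgery library Ighm made up 82.5% (81.1 to 83.9) of 3033 heavy-chain UMIs, Ighg2b 8.90%, Ighg1 5.11% and Igha 2.18%, and the Ighm share was 75.1% without 1 nucleus. Ighm led 61 of 87 nuclei there, Ighg2b 16, Igha 5 and Ighg1 3. In the BeAT surgery library Ighm made up 32.3% (24.5 to 41.0) of 133 UMIs, Igha 31.6% (23.8 to 40.2), Ighg2c 23.3% (16.4 to 31.4) and Ighg2b 11.3%, and Igha led 5 of 12 nuclei. In the BAT sham library the 6 nuclei had 205 Ighm UMIs among 232, with Ighm in the lead in 5 of 6. Ighm use was thus high in both libraries with the BAT label, and the surgery and sham shares there (82.5% and 88.4%) had intervals that overlapped.

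Several of the nuclei with most antibody RNA carried almost only 1 heavy-chain gene. The nucleus of the BAT surgery library with most antibody RNA, of the Irf4 Prdm1 cluster, had 901 Ighm, 1067 Igkc and 75 Jchain UMIs and 0 of every other heavy-chain gene, and Ighm and Igkc took 32.2% of its 6122 UMIs. Its leading variable genes were Igkv14-126 (33 UMIs) and Ighv11-2 (17 UMIs). Another nucleus had 129 Ighg1 and 162 Igkc UMIs with Ighv2-6 (37 UMIs) and Igkv6-23 (10 UMIs). In the BeAT surgery library the highest nucleus, which passed the B gate, had 118 Igha, 194 Igkc and 76 Jchain UMIs. Not every nucleus was so pure: in the BAT sham library 3 nuclei of a cluster led by muscle genes (Myh4, Tnnc2, Mylpf) had both Ighm and Ighg2c, with 33 and 22, 19 and 20, and 16 and 18 UMIs.

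Variable gene segments, which each B cell clone fixes for itself, had 962 UMIs over 103 genes in the BAT surgery library, 94 over 45 in the BAT sham, 903 over 165 in the BeAT surgery and 21 over 16 in the BeAT sham library. The UMI totals of the surgery libraries were close, and fewer genes carried them in the BAT surgery library. Its leading genes were Iglv1 (147 UMIs), Ighv2-6 (138) and Igkv14-126 (127), and Igkv1-110 (185) led in the BeAT surgery library. Ighv11-2 and Igkv14-126, a pair known from mouse B-1 cells that bind phosphatidylcholine, occurred together in 7 nuclei of the BAT surgery library, of which Ighm led 6 and Ighg2b 1. Ighv2-6 and Igkv6-23 occurred together in 6 nuclei, of which Ighg2b led 5 and Ighg1 1. Of the joint nuclei 4 of 7 and 3 of 6 lay in the Irf4 Prdm1 cluster. Most nuclei with 1 gene of a pair lacked the other: Ighv11-2 was found in 40, Igkv14-126 in 75, Ighv2-6 in 92 and Igkv6-23 in 50 nuclei. Neither pair occurred together in a nucleus of the other 3 libraries, and both pairs were picked from the nuclei with most antibody RNA.

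Kappa shares of light-chain constant UMIs (Igkc against Iglc1, Iglc2 and Iglc3) were higher under the BAT than under the BeAT label over the whole B gate, but this did not hold in all settings. In B nuclei Igkc made up 84.7% (79.7 to 88.9) in the BAT surgery and 79.2% (74.5 to 83.4) in the BAT sham library, which overlap. It made up 50.4% (48.6 to 52.3) in the BeAT surgery and 57.7% (48.5 to 66.6) in the BeAT sham library, which overlap as well. The BAT values depended on where the gate lay: in B nuclei of the resting cluster the shares were 63.2% (38.4 to 83.7) of 19 UMIs in the BAT surgery and 71.1% (64.6 to 77.0) in the BAT sham library. In B nuclei of the resting cluster the shares were 46.2% (44.1 to 48.2) in the BeAT surgery and 55.9% (46.1 to 65.3) in the BeAT sham library. Each of these overlaps the interval of its BAT counterpart. Without the nucleus with most light-chain UMIs the share of all B nuclei was 74.1% in the BAT sham and 76.3% in the BeAT sham library. In the BeAT sham library 26 of the 35 Iglc1 UMIs came from 1 nucleus.

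Kappa shares were next set side by side in antibody-rich and cycling nuclei. Igkc made up 93.2% (91.96 to 94.32) of light-chain UMIs in plasma-gated nuclei of the BAT surgery library and 67.6% (61.4 to 73.5) in those of the BeAT surgery library. Without the nucleus with most immunoglobulin UMIs the shares were 84.4% in the BAT surgery and 55.2% (47.5 to 62.8) in the BeAT surgery library, close to the 84.7% and 50.4% of their B nuclei, and without that with most light-chain UMIs the BeAT surgery share was 91.9%. In the Irf4 Prdm1 cluster it made up 92.7% (91.7 to 93.7) in the BAT surgery, 89.0% (84.0 to 92.9) in the BAT sham and 82.2% (73.3 to 89.1) in the BeAT surgery library. Within the BeAT surgery library it made up 65.3% (58.6 to 71.6) in cycling and 46.2% (44.1 to 48.2) in resting B nuclei. Iglc2 and Iglc3, which share 95.3% of their aligned bases, were both lower in the cycling nuclei, with 31.1 and 153.0 CPM for Iglc2 and 42.9 and 110.9 CPM for Iglc3.

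Jchain was compared between antibody-rich and B nuclei, and in the BAT surgery library the result depended on the class used. In plasma-gated over B nuclei the Jchain ratio was 1.31 (0.939 to 1.85) in the BAT surgery library, with 410.5 and 313.7 CPM, and 10.97 (7.48 to 15.6) in the BeAT surgery library, with 673.8 and 61.4 CPM. The BeAT surgery ratio rests on 34 Jchain UMIs in 7 plasma-gated nuclei. Without the top nucleus of each class the BAT surgery ratio of plasma-gated over B nuclei was 0.877. With the Irf4 Prdm1 cluster in place of the plasma gate it was 6.86 (4.90 to 9.87). In that cluster Jchain was found in 46 of 61 nuclei led by Ighm, 3 of 5 led by Igha and 7 of 21 led by an IgG gene in the BAT surgery library. In cycling B nuclei of the BeAT surgery library it was found in 25 of 37 led by an IgG gene and 13 of 28 led by Ighm, and in resting ones in 20 of 44 and 19 of 418. Jchain RNA was thus not limited to nuclei led by the genes of the 2 polymeric classes.

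Ighm RNA was also found where Igkc was nearly absent. Macrophage nuclei had 639 Ighm and 450 Igkc UMIs in the BAT surgery, 410 and 13 in the BAT sham, 40 and 13 in the BeAT surgery and 152 and 1 in the BeAT sham library. In CPM, Ighm in macrophage nuclei was 218.2 in the BAT surgery, 116.8 in the BAT sham, 114.9 in the BeAT surgery and 119.1 in the BeAT sham library, against 35.8 CPM in adipocyte nuclei of the BAT sham and 26.9 CPM in those of the BeAT sham library. The Igkc count per Ighm count was 0.0317 in macrophage and 1.11 in B nuclei of the BAT sham library, and 0.00658 and 0.696 in those of the BeAT sham library. In adipocyte nuclei that count was 0.374 in the BAT sham and 0.0909 in the BeAT sham library. In T or NK nuclei it was 0.429 and 0.182. The 2 genes thus did not keep 1 ratio across classes of a library, and the shares after thinning were 11.4% for Ighm and 0.412% for Igkc in BAT sham macrophage nuclei (28.9% and 1.18% before). Variable genes had 4 UMIs in macrophage nuclei of the BAT sham and 0 in those of the BeAT sham library.

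**Figure D4:**
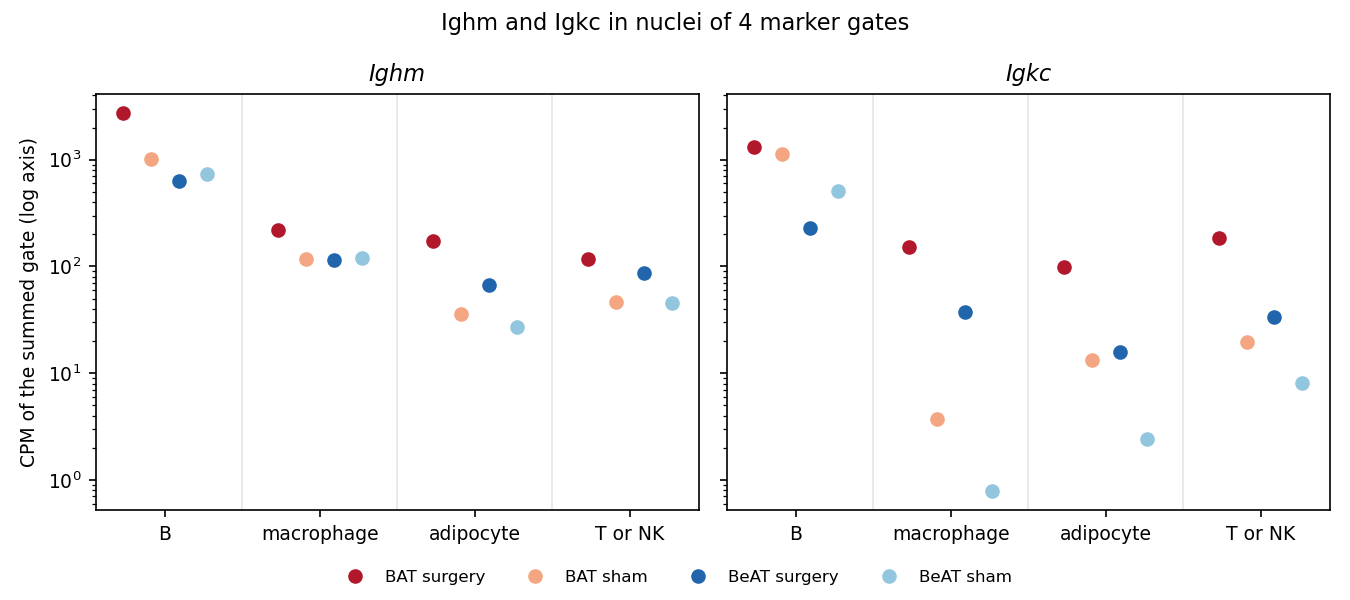
CPM of Ighm (left) and Igkc (right) summed over the nuclei of 4 marker gates, with 1 point per library on a log axis. The 4 macrophage points lie close together for Ighm, from 114.9 to 218.2 CPM, while for Igkc the sham points (3.70 and 0.783 CPM) lie far below the surgery points (153.7 and 37.3 CPM).

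Other genes of the antibody pathway were counted in B nuclei of surgery over sham. Under the BAT label 3 of 8 tested genes of the receptor complex were lower, beside 11.3% of all 1872 genes tested, namely Cd79a (86.1 and 394.1 CPM), which encodes a signalling chain of the receptor, its partner Cd79b (79.96 and 253.1 CPM) and the complement receptor gene Cr2 (73.8 and 190.9 CPM). The list median was -0.79 on the log2 scale beside -0.05 over all genes, and Cd79b is also a gate marker. The interferon receptor gene Ifngr1 was lower and the elongation factor gene Ell2 was higher. Over all lists 1 gene was thus higher, beside 6.52% of all genes, and 4 were lower, beside 11.3%. The genes tested were 1 lambda, 8 receptor complex, 1 class switch, 3 switch signal, 4 plasma cell and 0 transport and Fc receptor genes. With the B gate within B clusters the count of lower genes was 2, and with no minimum of UMIs 5 were higher and 8 lower. Within the resting cluster Cd79a and Cd79b were again lower, and the kinase gene Lyn was higher.

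Under the BeAT label 3 of 12 receptor genes were higher, beside 8.72% of all 9804 genes tested, the adaptor gene Blnk (981.7 and 459.1 CPM), the kinase gene Btk (322.1 and 129.1 CPM) and Cr2 (889.8 and 308.5 CPM), with a list median of 0.57 on the log2 scale beside 0.08 over all genes. Within the resting cluster 1 of the 12 was higher (Cr2) and 1 lower (Cd79b). Over all lists 5 genes were higher, beside 8.72% of all genes, and 5 were lower, beside 12.7%. The genes tested were 3 lambda, 12 receptor complex, 7 class switch, 8 switch signal, 12 plasma cell and 2 transport and Fc receptor genes. The count of higher genes was 16 by median-of-ratios scaling, by which 1486 of all genes were higher, against 855 by totals. It was 2 with the B gate within B clusters. Tgfbr1, a receptor for the cytokine that directs switching to IgA, was higher (221.7 and 43.0 CPM) and Ifngr1 lower (73.8 and 215.2 CPM). Of the plasma cell genes Xbp1 was lower (26.8 and 71.7 CPM), while Irf4 (61.8 and 78.9 CPM) and Prdm1 (61 and 0 UMIs) were not called. Fcgrt, the neonatal Fc receptor that protects IgG (12.5 and 179.4 CPM), and Fcer1g, an Fc receptor signalling chain (10.7 and 78.9 CPM), were lower. Of the 54 BeAT sham B nuclei 13 also passed another gate, 6 of them the macrophage gate, against 180 and 23 of the 2021 BeAT surgery B nuclei. The part of such nuclei in these 2 values was not tested. Within the resting cluster 1 of the 2 genes had enough UMIs, and it was lower. Pigr, the receptor that carries polymeric IgA and IgM across epithelia, had 15 UMIs in the BeAT surgery and 1 in the BeAT sham B nuclei. Of the lambda genes Iglc3 was higher and Iglc1 lower, the second resting on 1 BeAT sham nucleus.

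The genes most like the members were sought over 71 profiles, each the sum of a cluster within a library of at least 50 nuclei, which share libraries and depth. By Pearson correlation of log2(CPM + 1), given as a description, Ighm was most like Jchain (0.78), Mzb1 (0.73), Pou2af1 (0.71), Tnfrsf13b (0.67) and Il5ra (0.65). Igkc was most like Jchain (0.85), Mzb1 (0.74), Pou2af1 (0.68), Slpi (0.62) and Nfatc2ip (0.58), and Jchain most like Mzb1 (0.79), Pou2af1 (0.77) and Il5ra (0.69). Igha was closest to Jchain (0.76) and Pou2af1 (0.76). Ighg2c stood lower, with Slc23a1 (0.64), 5830418P13Rik (0.57) and Tas1r1 (0.55) in front of the B markers Ms4a1 (0.55) and Cd79a (0.55).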

How the data were processed

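The files are 4 gene by barcode matrices of UMI counts deposited by the authors, whole numbers with no normalization. Libraries were made by the SeekGene protocol, per the labels' protocols, and mm10 and Seurat 4.4.0 are named per the submitters' processing notes. The aligner, the handling of intron reads and the role of Seurat were not given in the sources used here. Library totals were 23118695 to 60409801 UMIs over 36760 barcodes. Kept barcodes had 500 or more UMIs from 300 or more genes, and mitochondrial UMIs below 10%, and doublets were removed per library with the Scrublet method in scanpy 1.11.5 (expected rate 6%). Its automatic threshold marked under 0.5% in both sham libraries, where the top 6% were removed instead. The kept nuclei numbered 34038, with median UMIs of 5173, 3970, 2654 and 3049 in the BAT surgery, BAT sham, BeAT surgery and BeAT sham libraries.

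Nuclei were gated by markers. They were also clustered (2000 variable genes, 30 components, Leiden resolution 1) without immunoglobulin genes, Jchain and other genes of the 3 immunoglobulin loci, and 1 cluster that mixed B and other nuclei was clustered again at resolution 0.3. That split, the cycling and resting comparison, the Irf4 Prdm1 cluster and the variable gene pairs were chosen after seeing the data. Counts were summed per library and class, scaled to the total and compared by exact conditional binomial intervals, and shares by Clopper-Pearson intervals (scipy 1.17.1). The call rule was tested on simulated data with independent counts. That setting does not cover genes with many UMIs in 1 nucleus, so it cannot show how the rule does there. The text names all 9 members, up to 4 called genes of the largest fold per list (every gene of a list of 3 or fewer) with Prdm1, Xbp1, Irf4 and Pigr, and the closest genes by correlation. One gene of the lists is not reported here. The members and lists were chosen with earlier results of these data known. Coordinates and sequences come from GRCm38 with the GENCODE M21 annotation, to which 32235 of 32285 gene IDs matched.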

Additional observations from a re-analysis of the deposited data

Results flagged for a closer look

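Ighd and Ighg2c differed in direction between the tissue labels. The ratio of surgery over sham for Ighd was 0.2313 under the BAT label and 57.47 under the BeAT label. The ratio for Ighg2c was 0.2636 under the BAT label and 66.94 under the BeAT label. Of the 185 Ighg2c UMIs of the BAT sham library, 22, 20 and 18 came from 3 nuclei of the cluster led by muscle genes, which had 0 BAT surgery nuclei. Each ratio rests on 1 library a side, and the difference between the labels was not tested.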

How the results depend on the processing

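No paired analysis was possible because each group has 1 library and the labels give no replicate numbers. Of 128 values under other settings 101 stayed within their interval or within 1.5 times their count and 27 moved. No called value changed direction. The Ighm share of heavy-chain UMIs in BAT surgery B nuclei moved to 71.13% (stricter gate), 77.33% (classes from clusters), 69.57% (B gate within B clusters) and 83.94% (without the top nucleus). In the BAT sham library it moved to 38.73% (classes from clusters) and 51.43% (thinned), and in the BeAT surgery library to 44.31% (level of other gates subtracted). The BAT surgery Jchain ratio of plasma-gated over B nuclei, 1.309 with an interval that includes 1, turned to below 1 under 2 of its settings. It moved to 0.8934 (no doublet removal), 1.971 (nuclei of other gates left out), 4.485 (thinned), 6.862 (Irf4 Prdm1 cluster) and 0.8771 (without the top nucleus), and the BeAT surgery ratio to 42.52 (thinned). The Igkc share of plasma-gated nuclei moved to 88.8% (no doublet removal), 95.03% (thinned) and 84.44% (without the top nucleus) in the BAT surgery library. In the BeAT surgery library it moved to 90.48% (thinned), 82.18% (Irf4 Prdm1 cluster) and 55.23% (without the top nucleus). Plasma-gated nuclei led by Igha in the BAT surgery library moved to 0% without nuclei of other gates. Pathway genes called higher under the BAT label moved to 5 with no minimum and 0 by the stricter gate, and those called lower to 8 with no minimum and 2 within B clusters. Pathway genes called higher under the BeAT label moved to 16 by median-of-ratios scaling, 3 by the stricter gate and 2 within B clusters. By median-of-ratios scaling all genes called higher there rose too, from 855 to 1486. The cause of these moves was not tested. No cluster was mostly of plasma-gated nuclei, so classes from clusters gave no plasma value. The Irf4 Prdm1 cluster, the B clusters, leaving out the top nucleus of a class or of a gene and leaving out shared barcodes were added after seeing the data. Few plasma nuclei and 42 to 79 B nuclei in 3 libraries limit the precision.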
